A study of Mus musculus with 2 samples.

Results

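Lipid handling was followed through 10 genes of the 32285 counted, Apoe, Lpl, Abca1, Abcg1, Pltp, Cd36, Fabp4, Fabp5, Pparg and Plin2, which were taken as a list of names, with earlier results of these data known. They were read in leukocytes of the mouse RPE/choroid, the pigmented layer under the retina and the vessel bed behind it. The tissue was digested with collagenase and dispase, and viable cells carrying CD45, the surface protein shared by leukocytes, were sorted by flow cytometry and profiled by droplet 3′ single-cell RNA sequencing. There were 2 libraries. One came from IL-17RA CKO mice (the knockout library) and one from IL-17ra fl mice (the flox library). Both groups had received an intraperitoneal injection of NaIO3, sodium iodate, an oxidant toxic to the RPE, at 20 mg/kg, so neither library is untreated. Not given in the labels are the Cre driver of the knockout, the deleted exons, the ages, the time after injection and how many animals went into each library.

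Myeloid cells take up lipoproteins and the membranes of dead cells, and they must store, burn or export the cholesterol and fatty acids that these carry. Export runs through the transporters ABCA1 and ABCG1 to lipoprotein particles that carry apolipoprotein E and are remodelled by phospholipid transfer protein, the product of Pltp. Uptake runs through lipoprotein lipase, which frees fatty acids from triglyceride, and the scavenger receptor CD36, with fatty acid binding proteins as carriers inside the cell. Storage is in lipid droplets coated by perilipin 2, the product of Plin2, and the nuclear receptor PPARγ drives many of the uptake and storage genes. In the eye the RPE recycles photoreceptor lipids, and microglia and recruited monocytes clear debris when the RPE is damaged.

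The 10 genes lie on 8 chromosomes in the mm10 build (GENCODE vM21), and all 10 are annotated as protein-coding. Apoe (ENSMUSG00000002985) is at chr7:19696109-19699188 on the minus strand, Pltp (ENSMUSG00000017754) at chr2:164839518-164857711 on the minus strand, Abca1 (ENSMUSG00000015243) at chr4:53030787-53159895 on the minus strand and Abcg1 (ENSMUSG00000024030) at chr17:31057675-31117988 on the plus strand. Lpl (ENSMUSG00000015568) is at chr8:68880491-68907448 on the plus strand, and Cd36 (ENSMUSG00000002944) at chr5:17781690-17888801 on the minus strand. The fatty acid binding protein genes are near each other, with Fabp4 (ENSMUSG00000062515) at chr3:10204088-10208576 on the minus strand and Fabp5 (ENSMUSG00000027533) at chr3:10012548-10016607 on the plus strand. Pparg (ENSMUSG00000000440) is at chr6:115360951-115490399 on the plus strand and Plin2 (ENSMUSG00000028494) at chr4:86648386-86670060 on the minus strand.

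Sequence before a transcription start was held for 6 of the 10 genes, as 10 windows of 250 bases from RefSeq (GRCm38.p6). Of these, 3 windows are shown, 1 for each pattern of levels described in the results: Cd36, which followed Pparg across the gates, Apoe, which was highest in cells with C1q transcripts, and Abca1, which was highest in B cells. Each is written 5′ to 3′ on the strand of the gene and overlaps no annotated exon. Capitals mark the letters AGGTCA or, on the other strand, TGACCT, the half-site that PPARγ and other nuclear receptors can bind as part of a longer element.
Cd36, chr5:17835897-17836146, minus strand: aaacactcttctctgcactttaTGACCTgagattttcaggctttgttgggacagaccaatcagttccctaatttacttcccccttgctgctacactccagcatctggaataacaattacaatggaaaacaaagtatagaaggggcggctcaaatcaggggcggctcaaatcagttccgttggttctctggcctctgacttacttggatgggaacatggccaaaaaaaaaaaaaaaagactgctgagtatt
Apoe, chr7:19699189-19699438, minus strand: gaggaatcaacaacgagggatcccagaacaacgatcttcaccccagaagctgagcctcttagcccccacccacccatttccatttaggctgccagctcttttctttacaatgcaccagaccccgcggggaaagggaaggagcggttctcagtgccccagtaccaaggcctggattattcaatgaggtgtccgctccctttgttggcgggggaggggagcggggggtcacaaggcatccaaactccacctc
Abca1, chr4:53159896-53160145, minus strand: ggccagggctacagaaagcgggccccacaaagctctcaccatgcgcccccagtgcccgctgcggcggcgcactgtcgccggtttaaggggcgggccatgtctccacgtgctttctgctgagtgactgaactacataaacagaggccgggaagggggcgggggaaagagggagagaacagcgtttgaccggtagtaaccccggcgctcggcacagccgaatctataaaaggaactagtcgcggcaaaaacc
The Cd36 window holds TGACCT with its first base 228 bases before the start, and it lies inside the span of the gene, before the start of a shorter transcript. Across the 10 windows the letters were found in 4, of Cd36, Plin2 and Pparg. They were found in 14.0% of the 32851 windows of the same length for all genes. A match of these letters is a description and not a bound site.

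Cells were grouped by gates on raw UMIs, the molecular tags that count captured transcripts. The gates were classical monocyte (F13a1 and Chil3, 3 or more UMIs), nonclassical monocyte (Cd300e and Adgre4, 2 or more), patrolling monocyte (Ace and Treml4, 2 or more), C1q (C1qa, C1qb and C1qc, 3 or more), type 2 dendritic cell (Cd209a and Clec10a, 2 or more) and B cell (Cd79a, 2 or more). After barcodes under 1000 UMIs or with 10% or more mitochondrial UMIs were left out, 3982 knockout barcodes with a median of 7714 UMIs and 3420 flox barcodes with a median of 8742 UMIs remained. The gates held 312 knockout and 416 flox barcodes (classical), 523 and 545 (nonclassical), 518 and 543 (patrolling), 64 and 61 (C1q), 150 and 203 (type 2 dendritic cell) and 1007 and 632 (B cell). A barcode can pass several gates: 459 knockout and 472 flox barcodes passed both the nonclassical and the patrolling gate, and 130 and 168 passed both the classical and the nonclassical gate. The classical and the dendritic cell gate shared 50 knockout and 59 flox barcodes. The gates held their defining markers, with Flt3 at 139 CPM in knockout and 129 CPM in flox cells of the dendritic cell gate and Ms4a1 at 751 CPM in knockout and 703 CPM in flox cells of the B cell gate. The dendritic cell gate also held the monocyte marker Ly6c2, at 419 CPM in knockout and 719 CPM in flox cells. In the classical gate Ly6c2 was at 916 and 1127 CPM. The C1q gate was mixed: 28 of 64 knockout and 15 of 61 flox barcodes had UMIs of 3 or more of 8 microglia markers, and 21 knockout and 24 flox barcodes without that many passed a monocyte gate. Barcodes counted as female had UMIs of Xist, the female X-inactivation RNA, and none of the Y-linked genes Ddx3y, Eif2s3y, Kdm5d and Uty. They made up 39.3% of knockout and 65.7% of flox barcodes. Barcodes counted as male had Y-linked UMIs and none of Xist, and made up 34.6% and 15.7%. The remaining barcodes had both or neither and were left out of the splits by sex. The libraries shared 3 barcode sequences.

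Levels are UMIs summed over the barcodes of a gate per 1000000 UMIs of those barcodes (CPM), with exact Poisson 95% intervals, and knockout over flox ratios carry exact binomial 95% intervals. These intervals cover counting error only. With 1 library per genotype there is no replicate check and no test of the genotype. A gene was counted as higher or lower where it had 20 or more UMIs over both libraries, differed by 1.5-fold or more and had an interval without 1. In the knocked-out gene itself, the knockout over flox ratio of Il17ra CPM lay between 0.817 and 0.964 over the 6 gates. Without the deleted exons known, 3′ tags do not check the knockout.

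Of 57 pairs of a gene and a gate with enough UMIs, 6 were higher in the knockout library and 5 lower. In the C1q gate 2 of 9 measured genes were higher (Apoe and Abca1) and 1 was lower (Abcg1), where 9.68% of 7331 genes measured there were higher and 7.53% lower. In the nonclassical gate 1 of 10 was higher (Pltp) and 1 lower (Fabp5), against 2.58% and 3.8% of 11125 genes. In the patrolling gate 1 of 10 was higher (Pltp) and none lower, against 2.66% and 3.63% of 11023 genes. In the classical gate 1 of 10 was higher (Lpl) and none lower, against 4.08% and 3.58% of 10851 genes. In the dendritic cell gate 1 of 9 was higher (Lpl) and 1 lower (Apoe), against 4.39% and 3.49% of 10197 genes. In the B cell gate none of 9 was higher and 2 were lower (Cd36 and Fabp5), against 2.38% and 5.34% of 11130 genes. With so few genes, counts of 0 to 2 a gate do not set the list apart from all genes. The median log2 ratio of the measured genes was 0.50 in the C1q gate, 0.26 in the nonclassical gate, 0.11 in the patrolling gate, -0.06 in the classical gate, -0.17 in the dendritic cell gate and -0.23 in the B cell gate. The medians over all genes measured in those gates lay between -0.01 and 0.04.

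**Figure D1:**
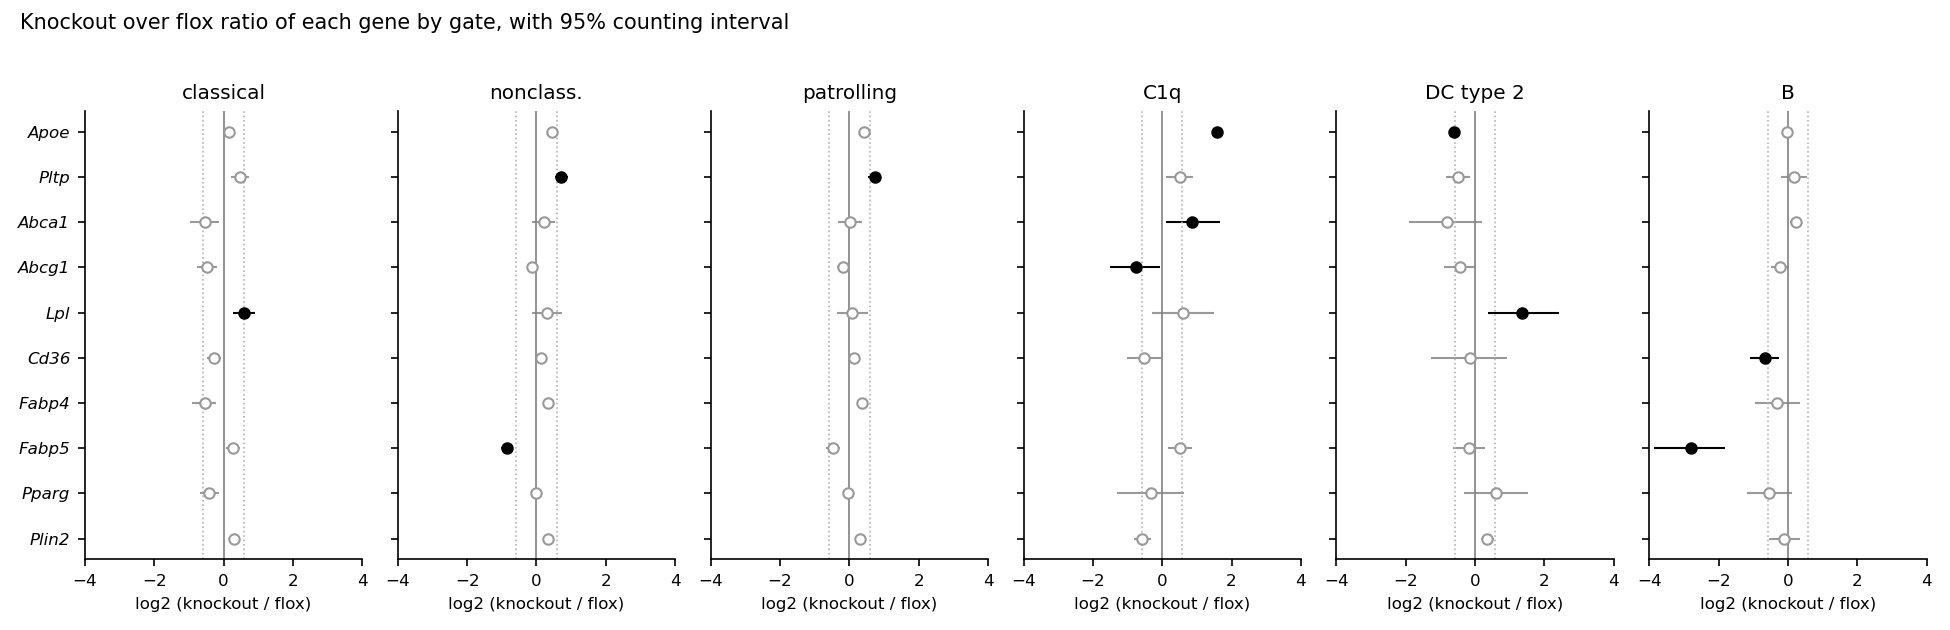
Knockout over flox ratio of CPM on a log axis for each gene (down the page) in each of 6 gates, with exact binomial 95% intervals. Filled points passed the 1.5-fold rule marked by dotted lines, and Apoe in the C1q gate, at 2.99, stands farthest right of the Apoe points.

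Apoe encodes the apolipoprotein of the particles that take up exported cholesterol. In the C1q gate it reached 10195 CPM (95% interval 9959.5 to 10434) in the knockout library and 3410.0 CPM (3285 to 3539) in the flox library, a ratio of 2.99 (2.86 to 3.12). In the nonclassical gate it had 2654 CPM (2614 to 2695) in knockout and 1960.5 CPM (1927 to 1994) in flox cells, and in the patrolling gate 2618 CPM (2577 to 2659) and 1969.7 CPM (1936 to 2004), ratios of 1.35 and 1.33 that did not reach 1.5-fold. The C1q gate therefore stood above the monocyte gates in both libraries, by 3.84-fold (3.74 to 3.95) in knockout and 1.74-fold (1.67 to 1.81) in flox cells over the nonclassical gate. Classical monocytes had 2260.2 CPM (2218 to 2303) in knockout and 2038 CPM (2003 to 2073) in flox cells, and the order of the 3 monocyte gates was not the same in both libraries. In the dendritic cell gate Apoe was lower in the knockout library, at 360.4 CPM (338 to 384), against 555 CPM (531 to 579) in flox cells, a ratio of 0.650 (0.602 to 0.701). In that flox sum, 1 barcode, which also passed the C1q gate, held 376 of the 2086 Apoe UMIs, and without it the ratio was 0.785 (0.725 to 0.849) and no longer past 1.5-fold. The C1q genes differed in this gate too, with C1qa at 16.6 CPM in knockout and 49.99 CPM in flox cells, C1qb at 30.2 and 95.99 CPM and C1qc at 17.7 and 39.6 CPM, and their part was not tested. The part of the 50 knockout and 59 flox barcodes shared with the classical gate was not tested on its own. In barcodes that passed exactly 1 gate, with fewer than 2 UMIs of Cd3d, Cd3e and Cd3g, the direction turned and the ratio lay above 1. That alternative left out the barcodes shared with any other gate together. Within 1 sex the Apoe ratio of the dendritic cell gate was 1.03 over 54 knockout and 156 flox female barcodes and 0.680 over 64 knockout and 34 flox male barcodes, and neither reached 1.5-fold. B cells had 361 CPM (347 to 376) in knockout and 365 CPM (348 to 383) in flox cells. In both libraries Apoe thus stood high in the C1q gate, lower in the monocyte gates and lowest in the dendritic and B cell gates.

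Few barcodes carried much of the Apoe of the C1q gate. The median barcode had 4306 CPM in the knockout library and 767 CPM in the flox library, while the highest barcode reached 129982 CPM in knockout and 83969.5 CPM in flox cells. The 5 barcodes with most Apoe UMIs held 44.7% of the gate's Apoe UMIs in knockout and 40.3% in flox cells, and 14 of 64 knockout and 20 of 61 flox barcodes had no Apoe UMI. The ranges of single barcodes overlapped from barcodes without Apoe up to the highest flox barcode, which had only 1048 UMIs in all. Among barcodes with UMIs of 3 or more of the 8 microglia markers, Apoe was at 22850 CPM (22251 to 23461) in 28 knockout barcodes and 2684 CPM (2439 to 2948) in 15 flox barcodes. These barcodes held 77.4% of the gate's Apoe UMIs in the knockout library and 15.7% in the flox library. In those that passed a monocyte gate instead, Apoe was at 3525 CPM (3326 to 3733) in 21 knockout and 2948 CPM (2789 to 3114) in 24 flox barcodes. In the remaining 15 knockout and 22 flox barcodes the order was the other way, at 3510.1 CPM (3189.7 to 3854) in knockout and 4833 CPM (4549 to 5129.6) in flox cells. This split was made after the levels had been seen.

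**Figure D2:**
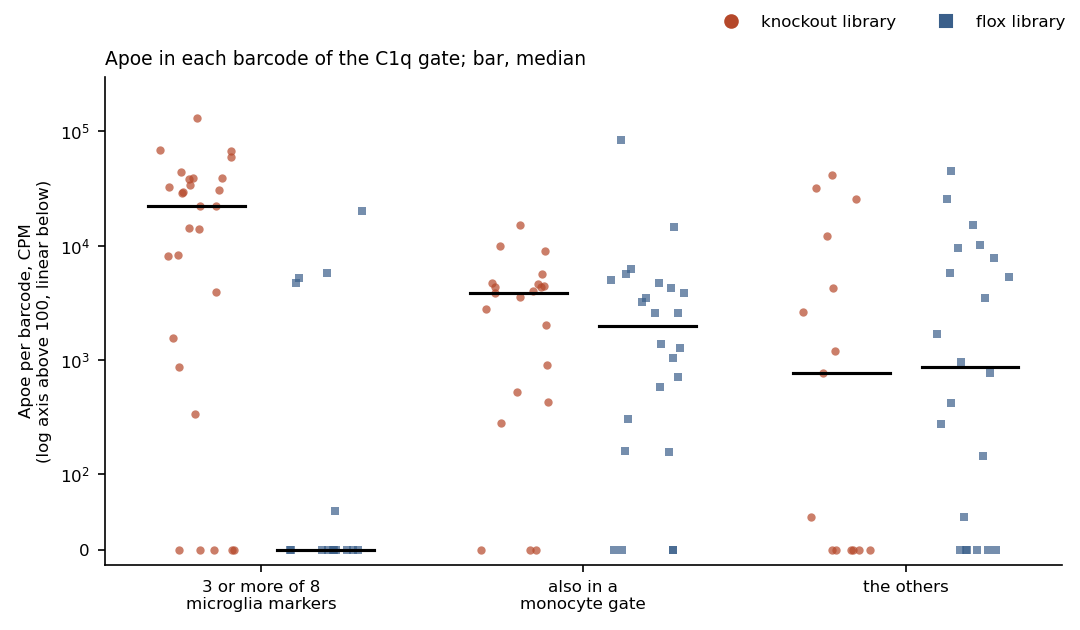
Apoe CPM of each barcode in the C1q gate, knockout left and flox right within each of 3 kinds of barcode, on an axis that is linear up to 100 CPM and logarithmic above, with bars at the medians. Barcodes with 3 or more microglia markers have a median of 22089 CPM in the knockout library and 0 CPM in the flox library.

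The summed microglia markers of this gate were higher in the knockout library, as Apoe was. All 8 had UMIs in both libraries, and their summed level was 1253 CPM in knockout and 483 CPM in flox cells. Tmem119, a microglia marker, was at 120.1 CPM in knockout and 65.8 CPM in flox cells, and P2ry12, a purine receptor of microglia, at 156 CPM and 39.0 CPM. The 9 tissue macrophage markers summed to 2114 CPM in knockout and 1102 CPM in flox cells. Monocyte markers went both ways. Ly6c2 was at 273 CPM in knockout and 1012 CPM in flox cells and Ccr2 at 783 and 1008 CPM, while Lyz2 was at 7288 and 6059 CPM and Csf1r at 632 and 562 CPM. T cell markers also differed, with 5 of 5 present at 130.1 CPM in knockout and 3 of 5 at 6.09 CPM in flox cells, where Cd3d and Trac were at 0. The part of these markers in the Apoe ratio was not tested. Within 1 sex, the Apoe ratio was 2.93 over 21 knockout and 25 flox female barcodes and 2.74 over 21 knockout and 6 flox male barcodes. Apoe was not found in every barcode with many microglia markers: of those with 6 or more, 5 of 8 in the knockout library and 3 of 4 in the flox library had no Apoe UMI.

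To compare shares of positive barcodes, each barcode was thinned to 2000 UMIs. Apoe was then found in 83.4% (79.9 to 86.5, exact binomial 95% interval) of 519 knockout and 70.2% (66.1 to 74.0) of 543 flox barcodes of the nonclassical gate. In the C1q gate the shares were 73.8% (60.9 to 84.2) of 61 knockout and 56.4% (42.3 to 69.7) of 55 flox barcodes, with overlapping intervals. As a background for free RNA, T cells, which should lack Apoe, had shares of 2.12% in knockout and 1.77% in flox barcodes. Their Apoe level was 11.8 CPM (10.1 to 13.8) in knockout and 6.75 CPM (5.38 to 8.35) in flox cells, a ratio of 1.75 (1.34 to 2.31), so this background was itself higher in the knockout library. Before thinning, the T cells had medians of 7856 UMIs in knockout and 8566 UMIs in flox barcodes, and the nonclassical gate 10883 and 11654 UMIs. B cells had Apoe in 30.1% of knockout and 31.3% of flox barcodes. B cells that passed no myeloid gate and had fewer than 2 UMIs of Cd3d, Cd3e and Cd3g had it in 29.0% and 30.9%. The B cell shares thus lay well above those of the T cells.

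**Figure D3:**
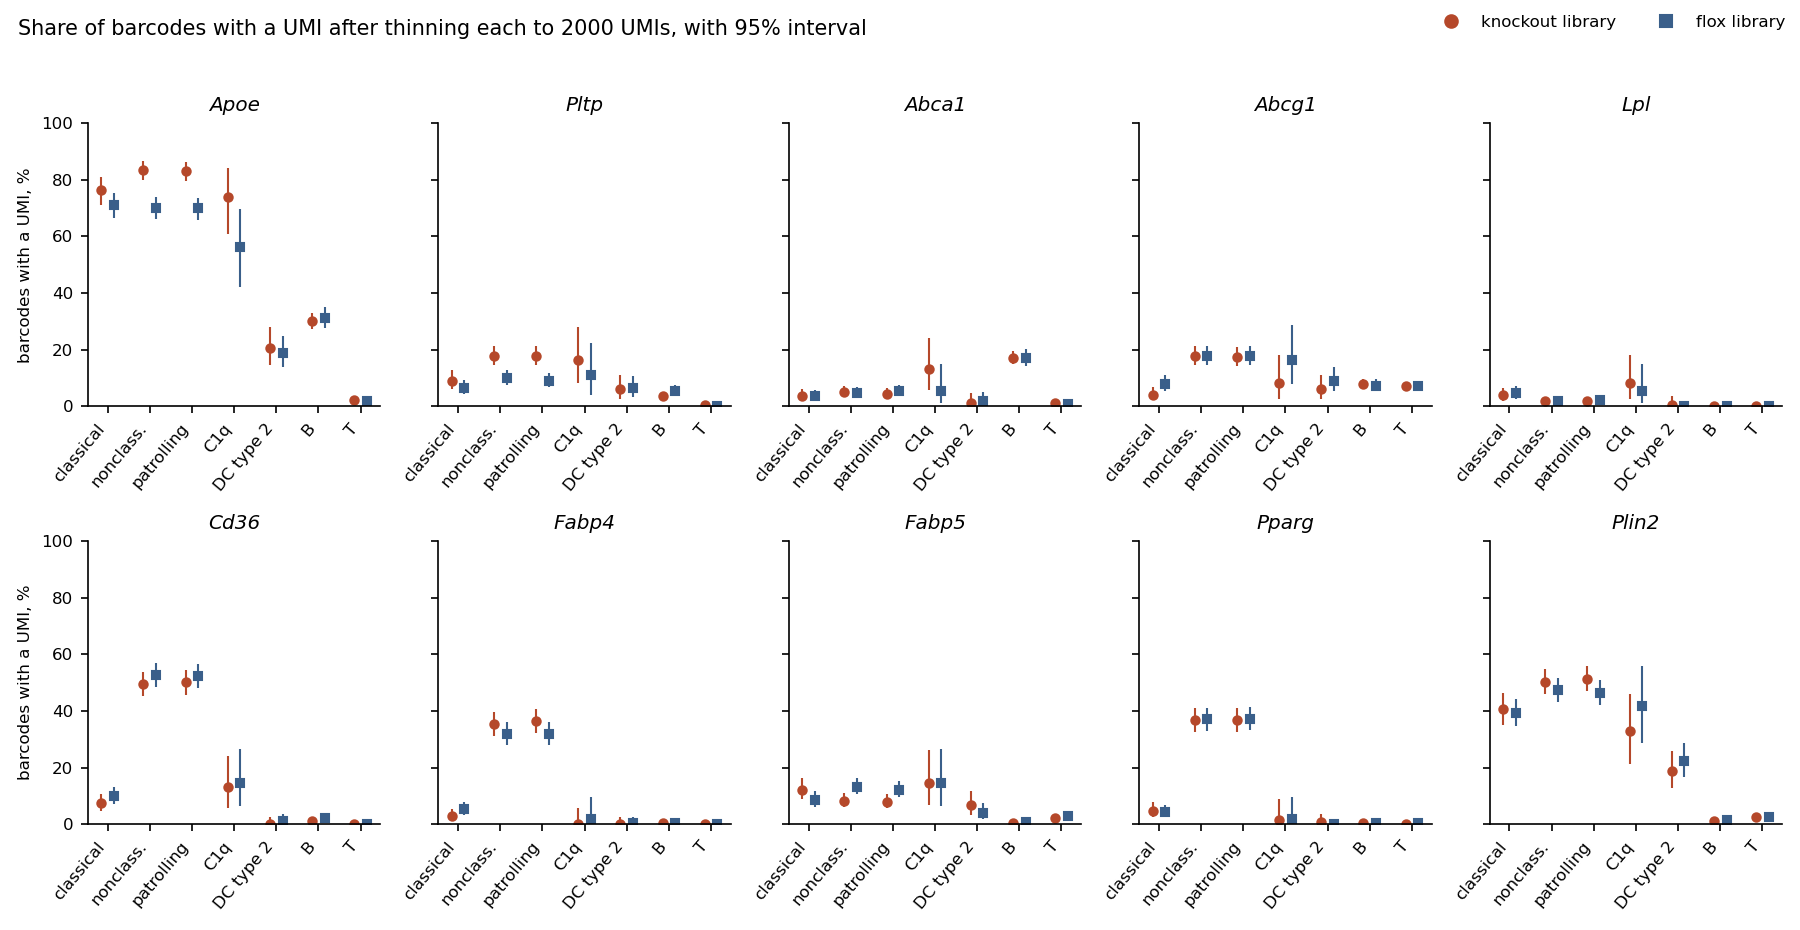
Share of barcodes with a UMI of each gene after thinning to 2000 UMIs per barcode, in percent with exact binomial 95% intervals, knockout left of flox, in the 6 gates and in T cells. Apoe is found in 83.4% of knockout and 70.2% of flox barcodes of the nonclassical gate and in 2.12% and 1.77% of T cells.

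Pltp, whose product moves phospholipid between lipoprotein particles, was higher in the knockout library in the nonclassical and patrolling gates. It had 91.6 CPM (84.3 to 99.5) in knockout and 55.8 CPM (50.3 to 61.7) in flox cells of the nonclassical gate, a ratio of 1.64 (1.44 to 1.88). In the patrolling gate, which shares most of these barcodes, it had 90.8 CPM (83.3 to 98.7) and 54.7 CPM (49.2 to 60.6), a ratio of 1.66 (1.45 to 1.90). The share of thinned nonclassical barcodes with Pltp was 17.7% (14.5 to 21.3) in knockout and 9.94% (7.56 to 12.8) in flox cells, and in T cells it was 0.436% and 0.295%. The T cell level was higher in the knockout library as well, at 3.58 CPM (2.66 to 4.72), against 1.85 CPM (1.17 to 2.77) in flox cells, a ratio of 1.94 (1.16 to 3.33). The excess was present among female barcodes, with a ratio of 1.92 in the nonclassical gate, and not among male barcodes, where it was 0.868. The classical gate had 54.8 CPM (48.4 to 61.7) in knockout and 39.2 CPM (34.5 to 44.3) in flox cells. The C1q gate had the top level in both libraries, 176 CPM (146 to 209.7) in knockout and 124 CPM (101 to 151) in flox cells. Female knockout barcodes had 348 CPM there and 91.3 CPM in the nonclassical gate. Male knockout barcodes had the reverse order, 41.6 CPM from 11 UMIs and 96.3 CPM. In flox cells the C1q gate stood above the nonclassical gate in both sexes. Neither the classical nor the C1q ratio reached 1.5-fold, and dendritic cells leaned the other way, at 39.0 CPM (31.9 to 47.2) in knockout and 54.8 CPM (47.6 to 62.8) in flox cells. B cells had 22.9 CPM (19.5 to 26.8) in knockout and 20.4 CPM (16.4 to 24.97) in flox cells.

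Abca1, the transporter that loads cholesterol onto apolipoprotein particles, had its top level in B cells and not in a myeloid gate. B cells had 97.6 CPM (90.4 to 105) in knockout and 83.2 CPM (75.01 to 92.1) in flox cells. Those that passed no myeloid gate and had fewer than 2 UMIs of Cd3d, Cd3e and Cd3g had 104 CPM (95.8 to 112) and 89.0 CPM (80.1 to 98.5). The whole B cell gate was 1.75-fold (1.27 to 2.49) above the C1q gate in knockout and 2.73-fold (1.82 to 4.27) above it in flox cells. In the C1q gate Abca1 was higher in the knockout library, at 55.7 CPM (39.6 to 76.2), against 30.5 CPM (19.7 to 45.0) in flox cells, a ratio of 1.83 (1.08 to 3.15) from 39 knockout and 25 flox UMIs. The summed microglia markers were higher in the knockout library in this gate as well, and their part was not tested. Nonclassical monocytes had 25.1 CPM (21.3 to 29.4) in knockout and 21.7 CPM (18.3 to 25.5) in flox cells, patrolling monocytes 23.9 CPM and 23.5 CPM, and classical monocytes 15.2 CPM (11.96 to 19.1) and 22.2 CPM (18.7 to 26.1). The dendritic cell gate was at the bottom in both libraries, with 4.42 CPM from 12 UMIs in knockout and 7.71 CPM from 29 UMIs in flox cells. After thinning, Abca1 was found in 17.2% of knockout and 17.0% of flox B cells, against 1.12% and 0.960% of T cells.

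Abcg1, the transporter that passes cholesterol to mature high-density particles, had its top levels in the nonclassical and patrolling gates. The nonclassical gate had 84.7 CPM (77.6 to 92.3) in knockout and 91.7 CPM (84.6 to 99.1) in flox cells, and the patrolling gate 83.5 CPM (76.4 to 91.1) and 94.3 CPM (87.1 to 102). Abcg1 was lower in the knockout library in the C1q gate, at 37.2 CPM (24.3 to 54.4), against 63.4 CPM (47.3 to 83.1) in flox cells, a ratio of 0.586 (0.351 to 0.956). That ratio rests on 26 knockout and 52 flox UMIs, with 11 of the flox UMIs in 1 barcode, and without that barcode it was 0.729 (0.428 to 1.22) and no longer called. The classical gate had 30.4 CPM in knockout and 42.3 CPM in flox cells, and the dendritic cell gate 25.4 CPM and 34.6 CPM. Abcg1 was also present in lymphocytes, at 43.8 CPM in knockout and 51.3 CPM in flox B cells and 39.0 CPM and 40.8 CPM in T cells. Abca1 and Abcg1 therefore differed in which gate led, B cells for Abca1 and nonclassical or patrolling monocytes for Abcg1, in both libraries.

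**Figure D4:**
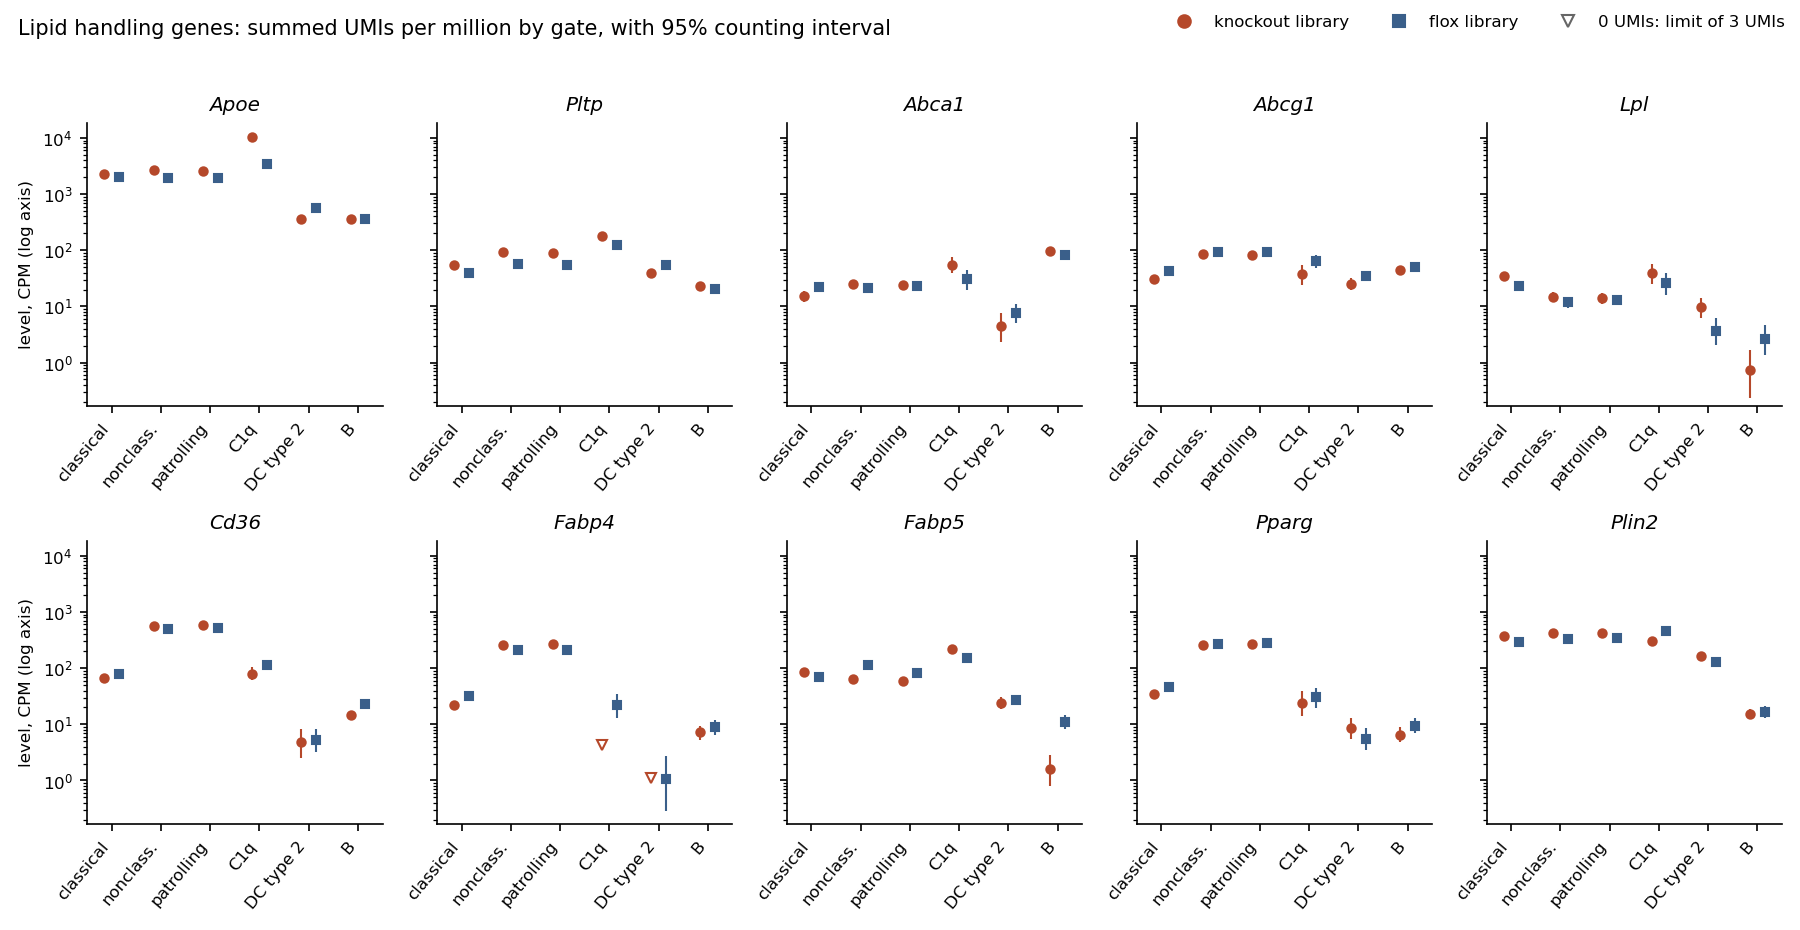
Level of each of the 10 genes in 6 gates as CPM on a log axis with 95% counting intervals, knockout left of flox. Open triangles mark gates with 0 UMIs at the limit that 3 UMIs would give, as for Fabp4 in knockout cells of the C1q and dendritic cell gates.

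Lpl encodes lipoprotein lipase. Its counts were low, with top levels in the C1q gate, 38.6 CPM (25.4 to 56.1) from 27 UMIs in knockout and 25.6 CPM (15.8 to 39.1) from 21 UMIs in flox cells, and in the classical gate. In 1 knockout barcode of the C1q gate lay 14 of the 27 UMIs. In the classical gate Lpl was higher in the knockout library, at 34.7 CPM (29.7 to 40.3), against 23.1 CPM (19.5 to 27.1) in flox cells, a ratio of 1.501 (1.20 to 1.88) that lies at the limit of the rule. In the dendritic cell gate it was higher too, at 9.57 CPM (6.25 to 14.0) from 26 UMIs in knockout and 3.72 CPM (2.04 to 6.25) from 14 UMIs in flox cells, a ratio of 2.57 (1.29 to 5.33). Microglia markers in that gate, with 6 of 8 present in knockout and 7 of 8 in flox cells and Sall1 at 0 in both, summed to 272 CPM and 133 CPM, and their part was not tested. The dendritic cell gate shared 50 knockout and 59 flox barcodes with the classical gate, where Lpl was higher, and their part was not tested on its own. Nonclassical monocytes had 14.8 CPM in knockout and 12.01 CPM in flox cells, and patrolling monocytes 13.9 CPM and 13.1 CPM. In B cells only 5 knockout and 12 flox UMIs were counted.

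Markers of RPE cells stood apart between the libraries in the classical gate. All 5 RPE markers had UMIs in knockout cells, with a sum of 586 CPM, while 3 of 5 had UMIs in flox cells, with a sum of 4.06 CPM and with Rlbp1 and Lrat at 0. The excess lay in barcodes that passed the classical gate without the nonclassical or patrolling gate, at 1261 CPM in knockout and 4.47 CPM in flox cells, and in those barcodes Lpl had 33.7 CPM (26.6 to 42.2) in 149 knockout and 36.1 CPM (29.5 to 43.7) in 199 flox barcodes. In barcodes that passed both kinds of gate the RPE markers were at 4.15 CPM in knockout and 3.72 CPM in flox cells, and Lpl was higher in the knockout library, at 35.5 CPM (28.7 to 43.4) in 163 barcodes, against 12.3 CPM (8.90 to 16.6) in 217 flox barcodes. In barcodes of the nonclassical or patrolling gate alone Lpl was lower in the knockout library, at 4.60 CPM (2.81 to 7.10), against 14.5 CPM (11.1 to 18.5) in flox cells, a ratio of 0.317 (0.182 to 0.532), so its direction was not the same across the monocytes. The part of the RPE markers in the Lpl ratio was not tested.

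Cd36, Fabp4 and Pparg encode the scavenger receptor, a carrier of fatty acids and the nuclear receptor PPARγ, and together they marked the nonclassical and patrolling gates. In the nonclassical gate Cd36 had 560.0 CPM (542 to 579) in knockout and 508 CPM (491 to 525) in flox cells. Fabp4 had 263 CPM (250.4 to 276) in knockout and 207 CPM (197 to 219) in flox cells. Pparg had 263 CPM (249.9 to 276) in knockout and 267 CPM (255 to 279) in flox cells. None reached 1.5-fold, with ratios of 1.10 (1.05 to 1.16), 1.27 (1.18 to 1.36) and 0.984 (0.919 to 1.05). The patrolling gate was close to these, with Cd36 at 578 CPM in knockout and 526 CPM in flox cells, Fabp4 at 272 CPM and 213 CPM, and Pparg at 268 CPM and 276 CPM. After thinning, Cd36 was found in 49.5% of knockout and 52.7% of flox nonclassical barcodes, Fabp4 in 35.5% and 31.9%, and Pparg in 36.8% and 37.0%. The classical gate had less of all 3 genes: Cd36 was at 66.1 CPM in knockout and 79.6 CPM in flox cells, Fabp4 at 21.9 CPM and 32.0 CPM, and Pparg at 34.1 CPM and 45.3 CPM. Of 4 markers of adipocytes, which also express these genes, Plin1, Cidec and Car3 had no UMI in the nonclassical gate of either library, and the 4 summed to 0.161 CPM in knockout and 0.293 CPM in flox cells. Endothelial cells can express these genes as well, and the sum of 6 endothelial markers ran with them, though not each marker did. Of the 6, 4 had UMIs in knockout cells of the nonclassical gate, with Cdh5 and Kdr at 0. All 6 had UMIs in flox cells, and the sums were 217 CPM in knockout and 272 CPM in flox cells. In the classical gate 5 of 6 in knockout and 6 of 6 in flox cells summed to 79.5 CPM and 82.4 CPM, and the part of these markers in the difference between the gates was not tested.

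The classical and nonclassical gates share barcodes, so the monocytes were also split after the levels had been seen into those passing the classical gate alone, both kinds of gate, or the nonclassical or patrolling gate alone. Cd36 had 16.2 CPM (11.4 to 22.4) in knockout and 9.96 CPM (6.67 to 14.3) in flox barcodes of the classical gate alone. It had 109 CPM (96.9 to 122) and 138 CPM (126 to 150.4) in barcodes passing both, and 747 CPM (721 to 773) and 697 CPM (673 to 722) in the nonclassical or patrolling gate alone. The last group was 46.1-fold (33.3 to 65.5) above the first in knockout and 70.0-fold (48.6 to 105) above it in flox cells. Pparg followed the same order, with 14.9, 50.6 and 349.8 CPM in knockout cells and 7.56, 76.7 and 361 CPM in flox cells. Fabp4 had 0.877, 40.01 and 358 CPM in knockout cells and 0.344, 58.3 and 281 CPM in flox cells, where the first of each came from 2 knockout and 1 flox UMIs. Abcg1 had 26.3, 34.0 and 106 CPM in knockout cells and 39.2, 44.9 and 119.5 CPM in flox cells, a smaller step in the same direction.

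**Figure D5:**
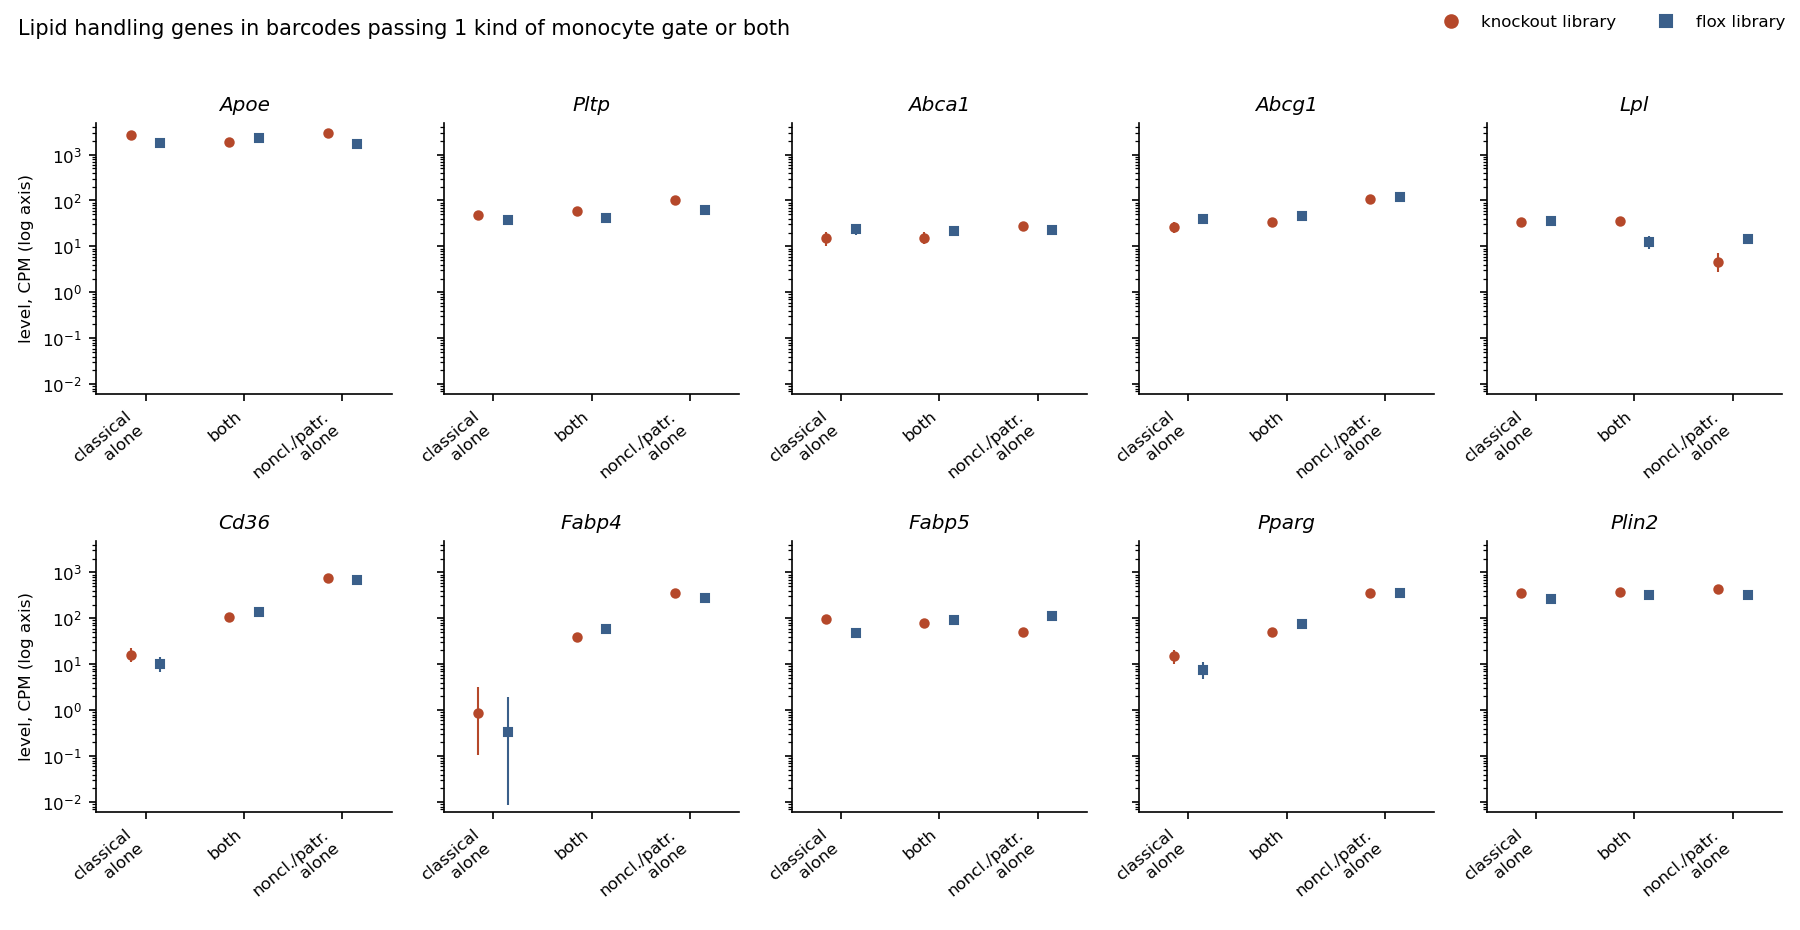
Level of each gene as CPM on a log axis with 95% counting intervals in barcodes passing the classical gate alone, both kinds of gate, or the nonclassical or patrolling gate alone, knockout left of flox. Cd36, Fabp4 and Pparg climb from left to right in both libraries, Cd36 to 747 CPM in knockout and 697 CPM in flox cells.

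The same split divided Apoe differently. It was higher in the knockout library in the classical gate alone, at 2725 CPM (2657 to 2793), against 1761 CPM (1713 to 1809) in flox cells, a ratio of 1.55 (1.49 to 1.61). It was also higher in the nonclassical or patrolling gate alone, at 2967 CPM (2916 to 3018), against 1690.1 CPM (1652 to 1729) in flox cells, a ratio of 1.76 (1.71 to 1.81). In barcodes passing both kinds of gate it had 1860.1 CPM (1809 to 1913) in knockout and 2268 CPM (2219 to 2319) in flox cells, a ratio of 0.820 (0.791 to 0.850) that did not reach 1.5-fold. The RPE markers were at 1261 CPM in knockout and 4.47 CPM in flox cells of the classical gate alone, and their part in the Apoe ratio there was not tested.

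Outside the monocyte gates Cd36, Fabp4 and Pparg lay far below their levels in the nonclassical gate. Against the classical gate this did not hold for Cd36 in the C1q gate, which was 1.21-fold (0.895 to 1.61) that level in knockout and 1.44-fold (1.14 to 1.80) in flox cells. In the C1q gate Cd36 had 80.0 CPM (60.5 to 104) in knockout and 115 CPM (92.6 to 140.2) in flox cells, and Pparg 24.3 CPM from 17 UMIs and 30.5 CPM from 25 UMIs. Fabp4 had no UMI in 64 knockout barcodes, which allows up to 4.29 CPM, and 21.9 CPM in flox cells, where 17 of 18 UMIs lay in 1 barcode. In the dendritic cell gate Cd36 had 4.79 CPM in knockout and 5.32 CPM in flox cells, Pparg 8.47 CPM and 5.58 CPM, and Fabp4 no UMI in knockout and 4 UMIs in flox cells. In B cells Cd36 was lower in the knockout library, at 14.4 CPM (11.7 to 17.6), against 23.0 CPM (18.8 to 27.9) in flox cells, a ratio of 0.628 (0.472 to 0.835). In B cells that passed no myeloid gate and had fewer than 2 UMIs of Cd3d, Cd3e and Cd3g, Cd36 was at 6.32 CPM (4.49 to 8.64) in knockout and 8.22 CPM (5.69 to 11.5) in flox cells. That ratio was 0.769 (0.473 to 1.26), from 39 knockout and 34 flox UMIs, and its interval holds 1. The call was therefore lost without barcodes that also passed a myeloid gate or carried these T cell transcripts. Without the flox barcode with most Cd36 UMIs the ratio in the whole gate was 0.766 (0.568 to 1.04) and not called. Fabp4 in B cells was at 7.15 CPM in knockout and 8.85 CPM in flox cells. It had 2 and 1 UMIs without the barcodes that passed a myeloid gate or carried these T cell transcripts.

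Fabp5 encodes another fatty acid carrier, the one long known from skin, and it did not follow Fabp4. Its top level was in the C1q gate, 216 CPM (183 to 253) in knockout and 151 CPM (126 to 180.2) in flox cells. In flox cells of that gate, barcodes with 3 or more microglia markers had 73.5 CPM, those in a monocyte gate 71.5 CPM and the rest 362 CPM. Female flox barcodes had less in the C1q gate, 47.5 CPM, than in the nonclassical gate, 135 CPM. Male flox barcodes had 46.4 CPM from 5 UMIs and 39.1 CPM. In the nonclassical gate Fabp5 was lower in the knockout library, at 63.6 CPM (57.5 to 70.2), against 114 CPM (106 to 123) in flox cells, a ratio of 0.556 (0.492 to 0.629). A flox barcode held 145 of the 781 flox UMIs, or 18.6%, and without it the ratio was 0.682 (0.5996 to 0.774) and no longer past 1.5-fold. After thinning, 8.29% of knockout and 13.3% of flox nonclassical barcodes had Fabp5, against 2.18% and 2.81% of T cells. The ratio in this gate turned with sex: it was 0.465 over 241 knockout and 388 flox female barcodes and 1.80 over 170 knockout and 53 flox male barcodes. T cell markers differed in the nonclassical gate, with 5 of 5 present in both libraries at 85.7 CPM in knockout and 35.4 CPM in flox cells, and their part in the Fabp5 and Pltp ratios there was not tested.

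In the patrolling gate Fabp5 had 58.6 CPM (52.6 to 65.0) in knockout and 81.2 CPM (74.5 to 88.4) in flox cells, and in the classical gate 85.8 CPM (77.8 to 94.4) and 71.0 CPM (64.6 to 77.8), neither past 1.5-fold. By the split of the monocytes, Fabp5 was higher in the knockout library in the classical gate alone, at 95.1 CPM (82.9 to 109), against 47.4 CPM (39.8 to 56.0) in flox cells, a ratio of 2.01 (1.61 to 2.50). It was lower in the nonclassical or patrolling gate alone, at 51.3 CPM (44.7 to 58.4), against 114 CPM (105 to 125) in flox cells, a ratio of 0.448 (0.381 to 0.525). The RPE excess of the knockout library lay in these classical barcodes too, and its part in the Fabp5 ratio was not tested. In B cells Fabp5 was lower in the knockout library, at 1.61 CPM (0.801 to 2.87) from 11 UMIs, against 11.1 CPM (8.21 to 14.6) from 50 UMIs in flox cells, a ratio of 0.145 (0.0681 to 0.282). Both values were below those of T cells, 16.0 CPM in knockout and 14.9 CPM in flox cells. By sex, female B cell barcodes held 5 knockout and 38 flox UMIs of Fabp5, and male ones 1 and 0. In B cells that passed no myeloid gate and had fewer than 2 UMIs of Cd3d, Cd3e and Cd3g, 3 knockout and 25 flox UMIs of Fabp5 remained. The mouse genome holds pseudogene copies of Fabp5, and how the counting assigned reads between them and the gene is not given, so its levels are uncertain to that extent.

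Plin2, which coats lipid droplets, was present in every myeloid gate and low in lymphocytes. It had 422 CPM (406 to 438) in knockout and 337 CPM (323 to 351) in flox cells of the nonclassical gate, 426 CPM (409.9 to 443) and 344 CPM (330.2 to 359) in the patrolling gate, and 367 CPM (350.1 to 384) and 296 CPM (283 to 309) in the classical gate. The ratios in these gates, 1.25, 1.24 and 1.24, did not reach 1.5-fold. The C1q gate leaned the other way, at 306 CPM (266 to 349.7) in knockout and 456 CPM (411 to 504) in flox cells, a ratio of 0.671 (0.565 to 0.796) just short of the rule. Dendritic cells had 163 CPM (148 to 179) in knockout and 127 CPM (116 to 139) in flox cells, B cells 15.3 CPM and 16.6 CPM, and T cells 12.2 CPM in each library. After thinning, Plin2 was found in 50.3% of knockout and 47.3% of flox nonclassical barcodes and in 2.55% and 2.51% of T cells. Apoe and Plin2 thus stood in opposite order between the libraries within the C1q gate.

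Across the 12 levels of the 6 gates in both libraries, log2(CPM + 1) of some members ran together. Pearson's r was 0.96 for Cd36 and Pparg, 0.89 for Fabp4 and Pparg, 0.88 for Cd36 and Fabp4 and 0.86 for Abcg1 and Cd36. Another set joined Lpl and Fabp5 (0.92), Fabp5 and Plin2 (0.90), Apoe and Pltp (0.87) and Apoe and Lpl (0.85). Abca1 ran with neither, with values between -0.49 with Plin2 and 0.29 with Abcg1. These are descriptions over points that share barcodes and libraries. Among 11277 genes with enough UMIs, those most like Pparg were Elf4, Acot9 and Smpdl3b, each at 0.99, and those most like Cd36 were Cyp4f18, Phyh and Dgkh, each at 0.98. The most like Apoe was March8 at 0.98, followed by Dlgap4 and Daglb at 0.97. For Pltp it was Kif1c, for Abca1 Arhgap12 and for Lpl Lrpap1, each at 0.97, and for Abcg1 Sel1l at 0.96. For Fabp4 it was Acyp2 and for Fabp5 Adam17, each at 0.98, and for Plin2 Gm35154 at 0.99.

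A list of 99 further lipid genes was counted in the same way, in 8 groups: cholesterol efflux under the liver X receptor, cholesterol synthesis and uptake, scavenger receptors, fatty acid handling, lipid droplets, fatty acid synthesis, lysosomal lipid enzymes and genes of lipid-associated macrophages. Over 477 measured pairs of a gene and a gate, 20 were higher in the knockout library and 22 lower. In the C1q gate 10 of 67 genes were higher and 6 lower, beside 9.68% and 7.53% of all genes measured there, so the lower count was near the share of all genes. The higher ones included the lysosomal protease gene Ctsd (1524 CPM in knockout and 842 CPM in flox cells) and Trem2 (409 and 171 CPM), a lipid receptor that pairs with apolipoprotein E in microglia. The lower ones included Spp1, which encodes osteopontin (237 CPM in knockout and 578 CPM in flox cells), and the cholesterol exchange receptor Scarb1 (30.01 and 53.6 CPM). Also lower was Nr1h3, which encodes liver X receptor alpha, the regulator of Abca1, Abcg1 and Apoe. It had 7.15 CPM in knockout and 29.2 CPM in flox cells, from only 5 and 24 UMIs. By group, 3 of 9 lysosomal genes were higher and none lower, with a median log2 ratio of 0.50. Of 10 efflux genes 2 were higher and 2 lower, of 10 genes of lipid-associated macrophages 2 and 2, and of 6 scavenger receptors 2 and 1. None of 12 genes of cholesterol synthesis and none of 11 of fatty acid handling passed the rule in this gate.

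In the classical gate 5 of 85 lipid genes were higher in the knockout library and 3 lower, beside 4.08% and 3.58% of all genes. Among the higher ones were the cholesterol synthesis genes Hmgcs1 (75.4 CPM in knockout and 50.1 CPM in flox cells) and Msmo1 (75.6 and 47.8 CPM). Of 15 measured genes of cholesterol synthesis 2 were higher and none lower there, with a median log2 ratio of 0.38. Also higher were Cd63 (22.5 CPM in knockout and 1.87 CPM in flox cells), Stab1 (15.2 and 4.68 CPM) and Fabp3 (3.85 and 1.25 CPM, from 19 and 8 UMIs). Lower were Itgax (11.8 and 17.9 CPM), Olr1 (9.73 and 17.9 CPM) and Scarf1 (3.85 and 7.49 CPM). The RPE markers that differed in this gate stand beside these values as well, and their part was not tested. In the nonclassical gate 1 of 84 was higher, G0s2, an inhibitor of triglyceride lipase (111 CPM in knockout and 70.9 CPM in flox cells), and 2 were lower, Cxcl16 (19.0 and 36.9 CPM) and Spp1 (1.13 and 9.66 CPM), beside 2.58% and 3.8% of all genes. In the patrolling gate 1 of 83 was higher, again G0s2 (134 CPM in knockout and 73.4 CPM in flox cells), and 1 lower, Spp1 (1.33 and 5.58 CPM), beside 2.66% and 3.63% of all genes. In the dendritic cell gate 2 of 81 were higher, Fasn (20.6 CPM in knockout and 12.5 CPM in flox cells) and Slc27a1 (9.57 and 3.72 CPM), and 2 lower, Spp1 (21.0 and 38.6 CPM) and Dgat2 (10.3 and 18.9 CPM), beside 4.39% and 3.49% of all genes. In B cells 1 of 77 was higher, G0s2 (2.77 CPM in knockout and 0.885 CPM in flox cells, from 19 and 4 UMIs), and 8 were lower, among them Acaca (25.5 and 38.9 CPM), Cd9 (18.5 and 35.9 CPM) and Scd2 (13.6 and 25.9 CPM), beside 2.38% and 5.34% of all genes.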

How the data were processed

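Per the labels' protocols, cells were captured with the 10x Genomics 3′ kit. The authors deposited raw UMI counts per gene and barcode. Per the file headers they were made with Cell Ranger 7.0.1 (knockout, 4096 barcodes) and Cell Ranger 4 (flox, 1002803 barcodes listed), and per the submitters' processing notes on mm10. The deposited counts total 35944330 UMIs in the knockout library and 38623933 in the flox library. Different pipeline versions and an unfiltered flox list mean that a pipeline effect and the genotype cannot be told apart.

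Barcodes with 1000 or more UMIs and under 10% mitochondrial UMIs were kept. Gates used raw UMIs, and T cells were barcodes of no gate with 2 or more UMIs of Cd3d, Cd3e and Cd3g. UMIs were summed per gate and divided by all UMIs of its barcodes. Intervals are 95% exact Poisson (levels), exact binomial (ratios) and Clopper-Pearson (shares). A difference was called at 1.5-fold with an interval without 1 and 20 or more UMIs, and a count of 0 was limited at 3 UMIs. Shares were taken after thinning to 2000 UMIs. No p-value was computed, because each group is 1 library. Scrublet marked 56 knockout and 24 flox barcodes as doublets, which were kept in the reported values and left out as an alternative.

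The 10 genes, the other lipid genes and the marker lists were chosen with earlier results of these data known. The T cell background, the split of the C1q gate and the split of the monocytes were added after the levels had been seen. Other lipid genes are named where called, largest UMI total first, up to 6 per gate and direction, and some of these are not reported here. The genes most like each of the 10 are the 3 with the highest r over 12 levels, among genes with 100 or more UMIs over the gates in both libraries. Haemoglobin, mitochondrial, ribosomal, gate and sex-linked marker genes were left out of both. Python 3.11.15, numpy 2.4.6, scipy 1.17.1, scanpy 1.11.5 and matplotlib 3.10.9 were used, and the counting code was tested on simulated data. Alternatives were other depth and mitochondrial limits, median ratio scaling, subtraction of free RNA, doublets left out, barcodes of exactly 1 gate, other gate minimums, thinned counts, 1 sex, a fold of 2, a mean over barcodes, the highest barcode left out in both libraries or in flox alone, and the gate splits. Barcodes of exactly 1 gate were also required to have fewer than 2 UMIs of Cd3d, Cd3e and Cd3g.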

Additional observations from a re-analysis of the deposited data

Results flagged for a closer look

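Fabp5 differed in direction between the sexes in the monocyte gates. In the nonclassical gate its knockout over flox ratio was 0.465 among female and 1.80 among male barcodes, and in the patrolling gate 0.592 among female and 1.70 among male barcodes. Pltp in the C1q gate had a ratio of 4.96 among female and 0.140 among male barcodes. The female ratio came from 84 UMIs in 21 knockout and 34 UMIs in 25 flox barcodes. The male ratio came from 11 UMIs in 21 knockout and 32 UMIs in only 6 flox barcodes. The intervals cover counting error only. In each case both intervals excluded 1, the difference between the sexes was not tested, and animals of 1 sex in a library cannot be told apart from each other.

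The flox list also holds 778499 barcodes with 100 or fewer UMIs, a range in which empty droplets are expected, and which enter no comparison. They held 3213373 UMIs, and all 10 genes were found among them. Apoe was at 925 CPM, Plin2 at 99.9 CPM, Cd36 at 71.9 CPM, Fabp5 at 59.4 CPM and Fabp4 at 42.9 CPM. Abcg1 was at 38.3 CPM, Pparg at 27.1 CPM, Abca1 at 19.0 CPM, Pltp at 17.7 CPM and Lpl at 5.60 CPM. The Apoe level of flox T cells, 6.75 CPM, was 0.730% of the level in these barcodes. The knockout file holds no such barcodes, so its free RNA was not analysed here.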

How the results depend on the processing

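No paired analysis was possible because each genotype is 1 library and the replicate number only names it. As reported, 6 of the pairs of a gene and a gate were higher in the knockout library and 5 lower, 20 and 22 among the other lipid genes, and Apoe in the C1q gate had a ratio of 2.99. That ratio was 3.20 without the barcodes Scrublet marked (with 8 lower), 5.34 in barcodes of exactly 1 gate (11 higher), 2.44 with gate minimums 1 UMI lower (10 lower), 4.765 with gates and levels on counts thinned to 2000 UMIs (3 lower, 7 other lipid genes lower), 2.65 on counts thinned to 1000 UMIs (2 lower, 12 other lipid genes higher and 8 lower), 2.85 as a mean over barcodes and 2.74 among male barcodes (10 lower, 37 other lipid genes higher). Among female barcodes 11 were higher, 8 lower and 31 other lipid genes higher. A fold of 2 left 2 higher and 1 lower, and 10 and 7 among the other lipid genes. Without the highest barcode of each gate and library 3 were lower, and without the C1q gate 10 other lipid genes were higher.

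Directions turned as follows. In barcodes of exactly 1 gate, ratios were 0.828 for Lpl (classical), 0.657 for Pltp (patrolling), 1.03 for Abcg1 (C1q) and 1.24 for Apoe (dendritic cell). Apoe in the dendritic cell gate was 1.002 with lower gate minimums, 3.55 on counts thinned to 2000 UMIs and 1.03 among female barcodes. Thinning to 2000 UMIs gave 0.692 for Lpl (classical) and 1.13 for Cd36 (B cell), and thinning to 1000 UMIs 0.381 for Abca1 (C1q). Among male barcodes Pltp was 0.868 (nonclassical) and 0.905 (patrolling) and Fabp5 1.80 (nonclassical). Chosen after seeing the data, the C1q split gave Apoe ratios of 8.51 with 3 or more microglia markers, 1.20 with a monocyte gate and 0.726 in the rest, where Abca1 was 0.670, and the classical gate alone gave Lpl 0.936. Fabp5 in the nonclassical gate ranged from 0.0227, in barcodes of exactly 1 gate, to the 1.80 among male barcodes. Without the flox barcode with most of the gene's UMIs, also chosen after seeing the data, Apoe in the C1q gate was 3.30. The causes were not tested. Lpl in dendritic cells (1.52 to 4.44) and Fabp5 in B cells (0.0804 to 0.615) kept their direction under every alternative that gave a value. These were 14 for Lpl and 15 for Fabp5, fewer than the 17 for Apoe in dendritic cells and the 18 for Cd36 in B cells. An alternative that left a library without a UMI of the gene gave no value, so these low counts were not checked there. Male barcodes gave no ratio for Fabp5 in B cells, with 1 UMI in 271 knockout barcodes and 0 in 130 flox barcodes.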
